A study of Mus musculus with 15 samples.

Results

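Heat shock proteins and the DnaJ proteins that work with them form much of the protein folding machinery of the cell. By name, 70 of the 14766 genes in the deposited table belonged to these families. They were taken where the gene name began with Hsp90, Hspa, Hspb, Hspd, Hspe, Hsph or Dnaj followed by a digit, a, b or c. That rule uses no measured value, but the members were chosen with earlier results of these data known. The members were 3 HSP90 genes, 11 HSP70 genes, 3 HSP110 genes, 9 genes named Hspb, the 2 genes of the mitochondrial chaperonin and 42 DnaJ genes, of which 4 were of class A, 11 of class B and 27 of class C. Hspb11, an intraflagellar transport protein, and Hspbap1, named as an associate of Hspb1, match by name and are not chaperones.

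RNA was sequenced from lung tissue of wild-type mice kept free of specific pathogens, in 3 groups of 5 libraries, labelled as biological replicates and as 1 batch. OVA_Rg3 mice were sensitised to ovalbumin, an egg protein that induces allergic airway inflammation, by injection and aerosol, and were gavaged over that period with ginsenoside Rg3, a ginseng saponin, at 20 mg/kg. OVA mice had the same induction without Rg3, and control mice received saline. The labels name no vehicle gavage for OVA mice, and strain, age and sex are not given in the sources used here.

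Chaperones bind proteins that are not yet folded or have lost their fold. HSP70 proteins hold short hydrophobic stretches in a cycle driven by ATP, DnaJ proteins bring them their clients and start ATP hydrolysis, and HSP110 proteins reset the cycle by exchanging the nucleotide. HSP90 proteins act later and finish kinases, receptors and, in the endoplasmic reticulum (ER), secreted and membrane proteins, while small HSPs bind unfolding proteins without ATP. Heat shock factor Hsf1 induces the cytosolic members under proteotoxic stress, and the unfolded protein response induces those of the ER, which is busy in secretory cells such as lung epithelium and plasma cells.

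The deposited values were read as FPKM, that is, reads relative to gene length and library size, because no unit is stated. They were divided by a size factor per library (the median ratio over 6365 genes at 1 or more in every library), and all levels below are such scaled FPKM. Steps between low values imply 0.219 to 3.93 M reads per OVA_Rg3 library, 2.86 to 3.62 M reads per OVA library and 0.842 to 9.11 M reads per control library. Apart from control 2, every control library had 6.19 M reads or more, above all OVA_Rg3 and OVA libraries. Depth thus differed between the controls and the other groups, and its part in the calls was not tested. The shallowest were OVA_Rg3 1, where 3 reads on a transcript of 1 kb make a value of 15, and control 2, where they make 3.17; in the other 13 libraries such a value was 0.223 to 1.74, and these floors cover counting error only. In OVA_Rg3 1 liver markers summed to 1623 and skeletal muscle markers to 954, the highest of all libraries. Control 2 (345 and 221) and OVA 4 (330 and 221) came next, and all other libraries reached at most 94.8 and 39.9. Markers of lung epithelium were present in every library. Of the 70 members, 63 reached a deposited value of 1 in 5 or more libraries and were tested, and 8 of those 63 were listed at 0 in OVA_Rg3 1 and in no other library. The other 7 (Hspa1l, Hspb3, Hspb9, Dnajb3, Dnajc5b, Dnajc6 and Dnajc22) all had their highest value in OVA_Rg3 1, at 2.70 to 6.60. This is under the value of 15 that 3 reads on a transcript of 1 kb make there, and on longer transcripts 3 reads make less.

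Between OVA and control lungs, 7 members passed the test. Hspa12b, a distant HSP70 relative of endothelial cells, rose in OVA lungs by log2 1.21. Another 6 genes fell, namely Hspa2, an HSP70 best known from male germ cells, Hspa4l of the HSP110 group, and the DnaJ genes Dnaja4, Dnajb4, Dnajb13 and Dnajc16, by log2 changes of -0.65 to -1.69. Hspa1a, Hspa1b, Hsp90aa1 and Dnajb1, which heat induces in the cytosol, and Hspa5 and Hsp90b1 of the ER were not among them. The test was limma on log2(scaled FPKM + 1) over all 15 libraries, with Benjamini-Hochberg adjustment over 12137 genes and a call at an adjusted p under 0.05.

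Those 7 calls are 11.1% of the 63 members tested, against 15.9% of all genes tested. In the upward direction the test called 1 member (1.59%), against 5.4% of all genes, and in the downward direction 6 members (9.52%), against 10.5%. The median log2 change was -0.14 over the members and -0.09 over all genes tested. The libraries of both groups did not overlap for 1 member with higher values in OVA and 5 with lower values, against 5.45% and 11.3% of all genes tested. Log2 changes above 0 made 36.5% of the members and 42.1% of all genes. The shares of members were thus near or below the background. In bulk lung tissue, fewer cells of a type and less RNA per cell cannot be told apart.

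Between OVA_Rg3 and OVA lungs no member passed limma, and neither did any gene in the table, so the share called was 0% in both. The members of smallest p were Hspe1, the cochaperonin of mitochondria, at log2 -0.56, Dnajc2, a ribosome-associated DnaJ protein, at -0.76, and Hsp90b1, the HSP90 of the ER, at -0.74. At an unadjusted p under 0.05 there were 6 members, against 8.61% of all genes tested, and the smallest adjusted p over all genes was 0.0824. The 95% intervals of 48 of the 63 members lay within 1 log2 unit of 0 on either side, and reached a median of 0.51 to either side of the estimate. For a typical member, an estimate smaller than that has an interval that includes 0. The intervals are not adjusted for the number of genes tested, so larger differences also went uncalled, among them those of Hspe1, Dnajc2 and Hsp90b1. A p above the threshold does not show equal levels. No member had all OVA_Rg3 libraries above all OVA libraries, which 0.478% of all genes tested had.

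Between OVA_Rg3 and control lungs 4 members passed limma, all of them among the 7 of OVA against control. Hspa12b rose by log2 0.98, and Dnajc16, Hspa4l and Dnaja4 fell by 0.84, 0.78 and 1.0 on the log2 scale. These were 6.35% of the members, against 8.91% of all genes tested; upward calls were 1.59% of members and 3.01% of genes, and downward calls 4.76% of members and 5.9% of genes. Log2 changes above 0 made 30.2% of the members and 42.7% of all genes. OVA against control and OVA_Rg3 against control share the control libraries, and OVA_Rg3 against OVA shares the OVA libraries with the first, so their values are given side by side only.

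**Figure D1:**
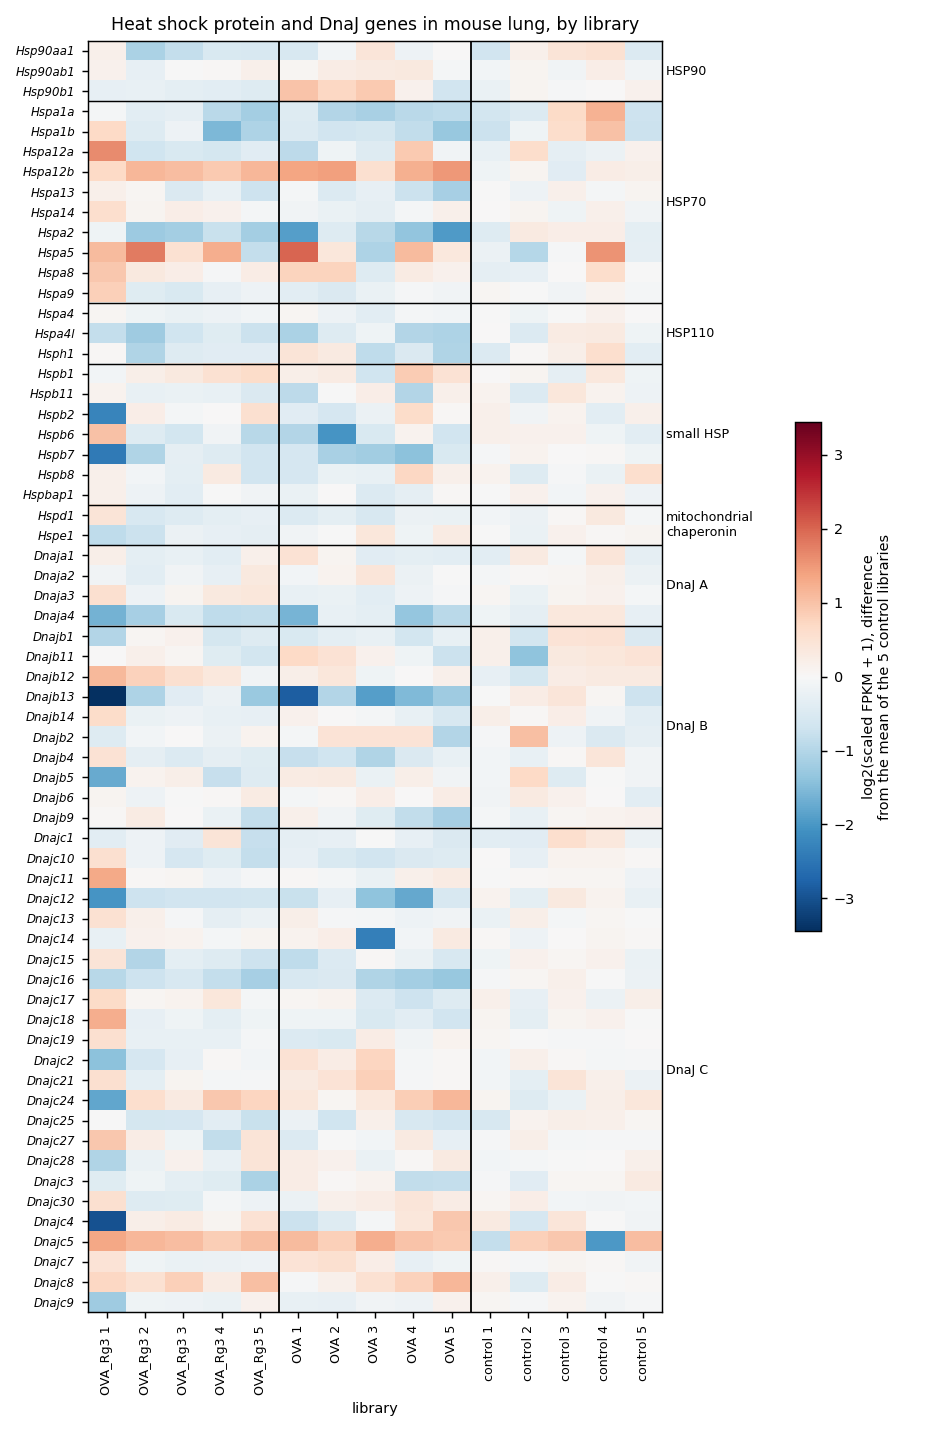
Heat map of the 63 tested members (rows, by family) in the 15 libraries (columns, OVA_Rg3, OVA and control). Colour gives log2(scaled FPKM + 1) minus the gene's mean in the 5 control libraries, red above and blue below; Hspa12b is red and Dnajc16 blue in all 10 OVA_Rg3 and OVA libraries, and several of the darkest blue cells are genes listed at 0 in OVA_Rg3 1.

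The scale of the values matters for these counts. In the values as deposited, the median log2 change over all genes tested was -0.73 for OVA against control, 0.32 for OVA_Rg3 against OVA and -0.43 for OVA_Rg3 against control, and over the members it was -0.91, 0.32 and -0.56. On that scale 41 members (65.1%) were called lower in OVA than in control lungs and none was called higher, against 51.2% of all genes tested called lower. In OVA_Rg3 against control 11 members (17.5%) were called lower, against 15.8% of all genes. With size factors from all genes above 0 in every library, 1 member was higher and 3 lower in OVA, and 1 higher and 1 lower in OVA_Rg3, both against control. Lower genes made 66.1% of all genes called for OVA against control, and 98.9% as deposited and 54.1% with quantile normalization; for OVA_Rg3 against control they made 66.2%, 95.3% and 56.4%. Values below are relative to the median-ratio scaling, under which the medians of all genes were -0.09, 0.02 and -0.08.

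The HSP90 genes were among the most abundant members. Hsp90ab1, the constitutive cytosolic HSP90, averaged 248 ± 30.4 scaled FPKM in OVA_Rg3, 279.9 ± 33.1 in OVA and 245 ± 26.5 in control lungs (SD, n = 5 each). Its log2 change was 0.19 ± 0.14 (SE) for OVA against control and -0.17 ± 0.14 for OVA_Rg3 against OVA, neither past limma. In the values as deposited OVA against control turned round for this gene, to -0.69 (limma adjusted p = 0.0153), and the adjusted p ran from 0.0153 to 0.593 over all alternatives. Together with Hsp90aa1, Hsp90b1 and Hspa8, it made 46.4% ± 1.55 of the summed level of all 70 members in OVA_Rg3, 52.7% ± 4.37 in OVA and 47.3% ± 2.45 in control lungs (SD, n = 5 each).

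Hsp90b1, also called GRP94, folds integrins, Toll-like receptors and secreted proteins in the ER. It lies on chromosome 10 (ENSMUSG00000020048.13, 86690209 to 86705509, minus strand, in the coordinates of the table, which match build GRCm38). Its level was 120.1, 122, 116, 114 and 108 scaled FPKM in OVA_Rg3 lungs, 288, 239, 272, 162 and 92.0 in OVA lungs, and 125, 156, 143, 148 and 163 in control lungs, in the order of the replicates 1 to 5. OVA_Rg3 libraries were tightly spaced, whereas OVA libraries 1 to 4 lay above every OVA_Rg3 library and OVA 5 below every other library of the study. Hsp90b1 had a log2 change of -0.74 ± 0.25 for OVA_Rg3 against OVA (SE, 95% interval -1.27 to -0.22, limma adjusted p = 0.501) and 0.41 ± 0.25 for OVA against control (limma adjusted p = 0.297). Without OVA 5 the values were -1.01 (limma adjusted p = 0.112) and 0.68 (limma adjusted p = 0.0217). With array weights OVA against control was also called (0.56, limma adjusted p = 0.0374); over all alternatives the adjusted p ran from 0.112 to 0.827 for OVA_Rg3 against OVA and from 0.0217 to 0.804 for OVA against control. In the values as deposited, OVA_Rg3 against OVA read -0.32 and OVA against control -0.46.

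Markers of plasma cells and of several other cell types were, like Hsp90b1, highest in OVA 1 to 3 among the OVA libraries. The 4 plasma cell markers summed to 1273, 947, 1173, 389 and 181 in OVA 1 to 5, against 80.8 to 375 in control lungs, and to 194 to 406 in OVA_Rg3 lungs. In OVA 1 to 5, lung epithelium markers summed to 8937, 5982, 2687, 2558 and 1958, and macrophage markers to 1478, 804, 371, 221 and 281. Club cell markers summed to 24842, 64514, 54295, 22819 and 23005. Markers of smooth, heart and skeletal muscle, ciliated cells, liver and endothelium did not have this order. Of the 4 plasma cell markers, Jchain rose in OVA and in OVA_Rg3 lungs against control, and Sdc1 fell in OVA lungs. Mzb1 and Xbp1 were not called, and only Mzb1 was listed at 0, in OVA_Rg3 1. The part of any of these cell types in the Hsp90b1 values was not tested.

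Promoters of 3 ER members carry the ER stress element, a sequence through which the unfolded protein response acts, within 250 bases before and 50 bases after a RefSeq transcript start, which can differ from the gene bounds of the table. The element was searched on both strands as CCAAT and CCACG with 9 bases of any kind between them, and 3 of the 56 members that have a RefSeq window of that length hold it, against 37 of all 27025 genes with one (0.137%). The sequences are RefSeq's, build GRCm38.p6, printed 5′ to 3′ on the gene's strand with the element in capitals and 20 bases on each side. They show what Hspa5, Dnajc3 and Hsp90b1 share; a match is a description and not a site shown to be used.
Hspa5, chr2:34772005-34772063, plus strand: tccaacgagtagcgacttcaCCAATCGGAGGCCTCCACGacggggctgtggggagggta
Dnajc3, chr14:118937807-118937865, plus strand: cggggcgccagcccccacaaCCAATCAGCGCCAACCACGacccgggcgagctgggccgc
Hsp90b1, chr10:86705513-86705676, minus strand: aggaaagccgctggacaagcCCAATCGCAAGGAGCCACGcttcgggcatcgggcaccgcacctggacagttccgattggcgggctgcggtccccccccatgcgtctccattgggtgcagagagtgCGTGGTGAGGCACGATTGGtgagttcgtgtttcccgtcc
The Hsp90b1 promoter holds the element in each orientation.

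These 3 genes did not share 1 profile across the libraries. Hspa5, the HSP70 of the ER known as BiP, was the most variable of them, at 35.6, 58.5, 23.9, 40.4 and 8.91 scaled FPKM in OVA_Rg3 lungs, 67.9, 21.6, 7.33, 36.1 and 21.4 in OVA lungs, and 14.1, 7.79, 16.0, 49.3 and 12.9 in control lungs. The groups overlapped throughout, and control 4 lay apart from the other controls. The log2 changes were 0.55 ± 0.58 for OVA against control and 0.21 ± 0.58 for OVA_Rg3 against OVA (SE), with 95% intervals of -0.67 to 1.78 and -1.01 to 1.43. Dnajc3, a cochaperone of BiP that also inhibits the kinase PERK, averaged 17.1 ± 3.88 in OVA_Rg3, 21 ± 7.48 in OVA and 24.0 ± 4.18 in control lungs (SD, n = 5 each).

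The other DnaJ partners of BiP were alike in giving no call, though alternatives called some of them. Dnajb9 (ERdj4), which lowers signalling by the stress sensor IRE1, measured 17.6 ± 4.80 in OVA_Rg3, 14.1 ± 5.35 in OVA and 19.0 ± 2.26 in control lungs, and Dnajb11 (ERdj3), which binds nascent secretory proteins, 13.8 ± 3.34, 17.3 ± 6.51 and 16.7 ± 6.64 (SD, n = 5 each). For Dnajb9, Dnajb11 and Dnajc3 the order within the OVA group was similar to that of Hsp90b1, with OVA 1, 2 and 3 the highest 3 libraries, a pattern that 12 of the 63 members and 18% of all genes tested had. Dnajc10 (ERdj5), a reductase of the ER, averaged 13.2 ± 5.72 in OVA_Rg3, 10.8 ± 1.14 in OVA and 15.4 ± 1.80 in control lungs (SD, n = 5 each; log2 change -0.48 for OVA against control, limma adjusted p = 0.138). Hspa13, an HSP70-like protein of microsomes, was at 3.28 ± 1.10, 2.5 ± 0.974 and 3.96 ± 0.472 in the same order, with a log2 change of -0.54 for OVA against control (limma adjusted p = 0.107). OVA_Rg3 1 was the highest OVA_Rg3 library for both. Dnajc10 was called lower in OVA against control as deposited, with array weights, with 2 groups at a time and without OVA_Rg3 1. Array weights and leaving out OVA_Rg3 1 also called it lower in OVA_Rg3 against control. With array weights Hspa13 was called lower in both comparisons.

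**Figure D2:**
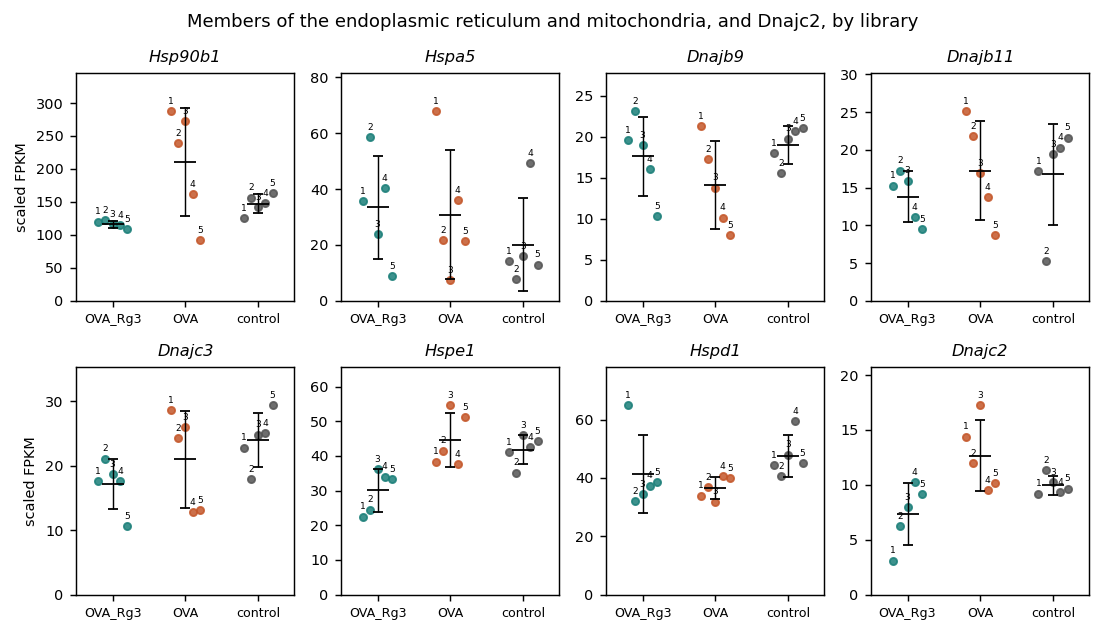
Scaled FPKM of members of the ER and the mitochondria, and of Dnajc2, in each library, with points numbered by replicate and bars giving mean and SD (n = 5 per group, OVA_Rg3, OVA, control). OVA 1 to 3 stand high for Hsp90b1, at 239 to 288, and all 5 OVA_Rg3 values of Hspe1 (22.5 to 36.2) lie below all 5 OVA values (37.7 to 54.7).

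Among cytosolic members that heat induces, Hspa1a and Hspa1b encode nearly the same HSP70. Hspa1a was at 3.38, 2.59, 2.69, 1.40 and 1.03 scaled FPKM in OVA_Rg3 lungs, 2.37, 1.27, 1.13, 1.40 and 1.51 in OVA lungs, and 1.95, 2.29, 6.2, 9.42 and 1.81 in control lungs. Only controls 3 and 4 stood above the rest, and the other 3 controls overlapped both other groups. The log2 change for OVA against control was -0.88 ± 0.34 for Hspa1a (SE, limma adjusted p = 0.0990) and -0.78 ± 0.40 for Hspa1b (limma adjusted p = 0.216). For OVA_Rg3 against OVA they were 0.31 ± 0.34 and 0.27 ± 0.40. Of the 50-base stretches of the Hspa1a transcript, 58.8% also occur in the Hspa1b transcript, so how reads were divided between the pair is uncertain.

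Controls 3 and 4 were also the 2 highest controls for Dnajb1, Hsp90aa1 and Hsph1, which are among the partners of these HSP70 proteins. Dnajb1 (HSP40), their main inducible DnaJ partner, read 3.63, 8.83, 9.26, 5.09 and 5.89 in OVA_Rg3, 5.53, 6.41, 6.81, 4.99 and 6.87 in OVA, and 9.46, 5.07, 12.0, 12.1 and 5.57 in control lungs. Hsp90aa1, the inducible cytosolic HSP90, read 126, 51.9, 62.7, 77.4 and 76.3 in OVA_Rg3, 75.5, 105, 148, 98.1 and 113 in OVA, and 70.7, 125, 151, 161 and 79.8 in control lungs. The groups overlapped for both genes, with log2 changes of -0.40 ± 0.26 and -0.08 ± 0.27 for OVA against control (SE, limma adjusted p = 0.341 and 0.888). Hsph1, the inducible HSP110, averaged 5.36 ± 1.61 in OVA_Rg3, 6.26 ± 3.38 in OVA and 7.71 ± 2.65 in control lungs (SD, n = 5 each), and its control 4 value of 11.6 was the highest of all 15. Controls 3 and 4 were the 2 highest controls in 20 of the 63 members tested (31.7%), against 11.7% of all genes tested. This pair was picked after the values of these members were seen, so a share above the background can follow from that choice. The labels give both libraries the same treatment and batch as the other controls.

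Hspa8, the constitutive HSP70 of the cytosol, and Dnaja1, its farnesylated DnaJ partner, were not called either. Hspa8 averaged 94.1 ± 25.2 in OVA_Rg3, 93.1 ± 30.3 in OVA and 73.9 ± 20.9 in control lungs (SD, n = 5 each), a log2 change of 0.30 ± 0.25 for OVA against control (SE), which read -0.56 in the values as deposited. For Dnaja1 the levels were 17.4 ± 3.77, 17.8 ± 5.52 and 19.1 ± 4.99 (SD, n = 5 each), and for Dnaja2, its close relative, 31 ± 6.54, 34.7 ± 6.01 and 33.3 ± 3.39. Hsf1, the regulator of the inducible genes, had log2 changes of 0.01 for OVA against control and -0.09 for OVA_Rg3 against OVA, at 1.93 ± 0.444 in OVA_Rg3, 2.15 ± 0.729 in OVA and 2.25 ± 1.40 in control lungs (SD, n = 5 each). The heat shock element, searched on both strands as GAA, TTC and GAA with 2 bases of any kind between neighbours, is in 4 of the 56 members with a window, against 179 of all 27025 genes with one (0.662%). The 4 are Dnajb6, Hspd1, Hspe1 and Hsph1.

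**Figure D3:**
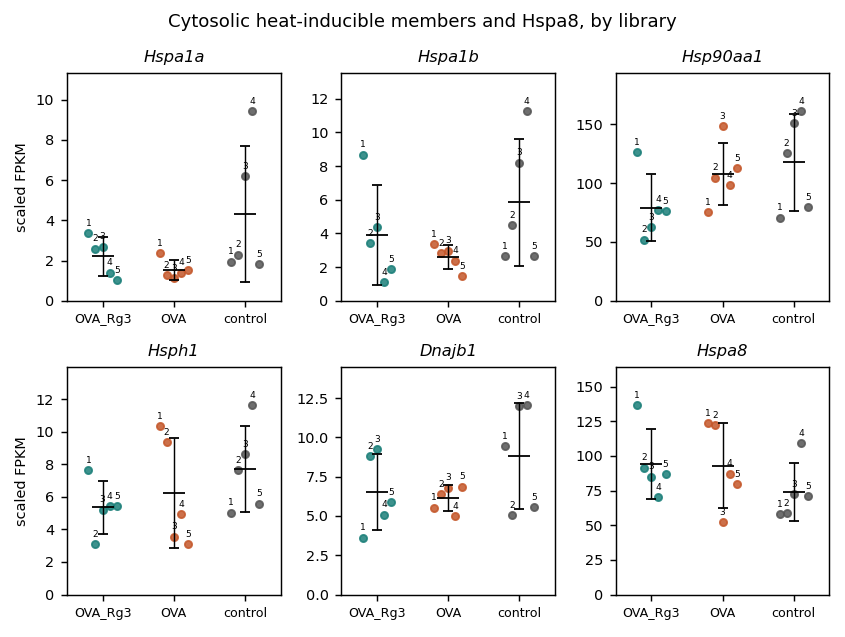
Scaled FPKM of 5 heat-inducible members and of Hspa8 in each library, numbered by replicate, with mean and SD (n = 5 per group, OVA_Rg3, OVA, control). Controls 3 and 4 lie highest for Hspa1a, at 6.2 and 9.42, while the other libraries of all groups lie at 1.03 to 3.38.

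Hspa12b (ENSMUSG00000074793.10, chromosome 2, 131127280 to 131146321, plus strand) encodes an atypical HSP70 found mainly in endothelium. It read 7.32, 10.5, 9.84, 8.64 and 10.4 scaled FPKM in OVA_Rg3 lungs, 12.3, 12.8, 6.65, 11.2 and 13.7 in OVA lungs, and 3.67, 4.58, 3.01, 5.20 and 4.94 in control lungs. Every OVA_Rg3 and every OVA library lay above every control. It rose by a log2 change of 1.21 ± 0.19 for OVA against control (SE, limma adjusted p = 0.00147) and 0.98 ± 0.19 for OVA_Rg3 against control (limma adjusted p = 0.0103), while OVA_Rg3 against OVA was -0.23 ± 0.19 with a 95% interval of -0.63 to 0.18. In the values as deposited, the differences from control were 0.46 (limma adjusted p = 0.200) and 0.60 (limma adjusted p = 0.159), so both calls ended there; over all alternatives the adjusted p lay between 0.000242 and 0.159 for OVA_Rg3 and between 0.000167 and 0.200 for OVA.

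The 4 endothelial markers examined beside it summed to 67.1 to 173 in OVA_Rg3, 47.5 to 82.6 in OVA and 33.7 to 60.5 in control lungs. None of the 4 was called in OVA against control, Pecam1 and Cdh5 rose in OVA_Rg3 against control, and Kdr and Ednrb were not called; no marker was at 0 in any library. Their part in the Hspa12b result was not tested. Hspa12a, the neuronal relative of Hspa12b, averaged 2.81 ± 3.49 in OVA_Rg3, 2.27 ± 1.70 in OVA and 2.39 ± 0.994 in control lungs (SD, n = 5 each) and was not called.

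Hspa2 (ENSMUSG00000059970.7, chromosome 12, 76404176 to 76406938, plus strand) fell in OVA lungs. Its levels were 11.9, 5.11, 5.48, 7.44 and 5.43 in OVA_Rg3, 2.88, 9.67, 6.42, 4.64 and 2.72 in OVA, and 9.65, 16.8, 16.0, 16.0 and 10.5 in control lungs. OVA 2 just passed the lowest control, and OVA_Rg3 1 lay among the controls. Its log2 change was -1.32 ± 0.30 for OVA against control (SE, limma adjusted p = 0.00869) and -0.90 ± 0.30 for OVA_Rg3 against control (limma adjusted p = 0.0687). Without OVA_Rg3 1 the second comparison read -1.08 with a limma adjusted p of 0.0271, within a range of 0.00645 to 0.151 over all alternatives; the call for OVA against control held in all 26.

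Other HSP70 members were not called in any comparison. Hspa9, mortalin of the mitochondrial matrix, averaged 30.0 ± 13.8 in OVA_Rg3, 25.8 ± 3.42 in OVA and 30.6 ± 2.35 in control lungs (SD, n = 5 each), and the value of 54.4 in OVA_Rg3 1 stood well above the 20.8 to 27.2 of the other OVA_Rg3 libraries. Hspa14, which works with Dnajc2 at the ribosome, was at 6.17 ± 1.22, 4.76 ± 0.774 and 5.21 ± 0.606 in the same order of groups (SD, n = 5 each). Hspa1l, a testis relative of Hspa1a, was too low to test.

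**Figure D4:**
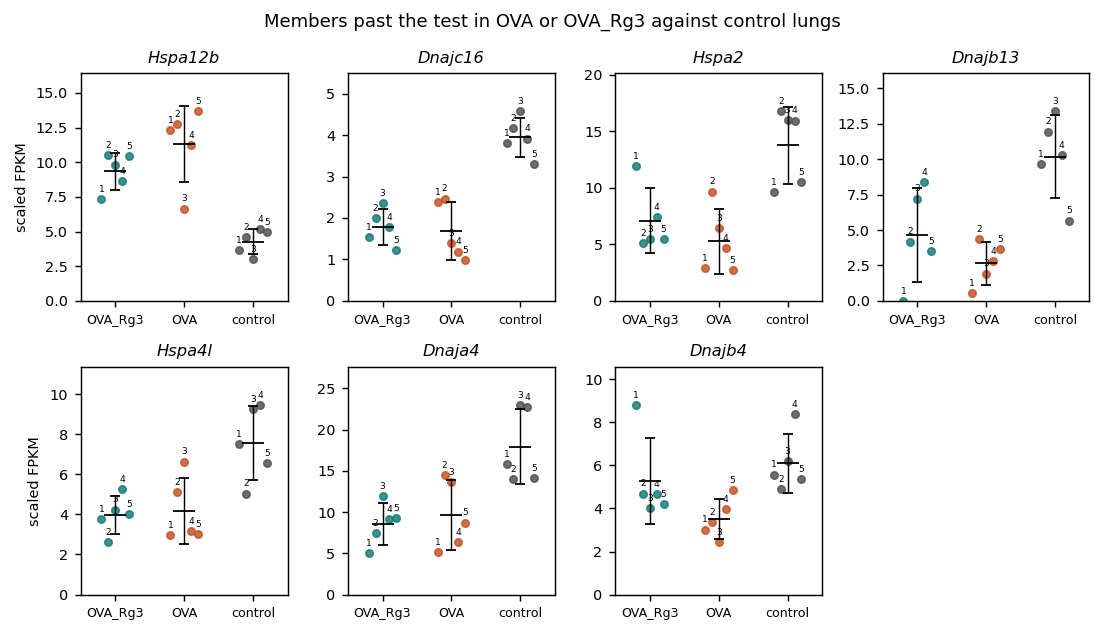
Scaled FPKM of the 7 members called in OVA or OVA_Rg3 against control, in each library, numbered by replicate, with mean and SD (n = 5 per group, OVA_Rg3, OVA, control). Hspa12b lies above the controls in both other groups and the other 6 lie lower in OVA, with no overlap for Dnajc16, Dnajb13 and Dnajb4.

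In the HSP110 group the call fell on Hspa4l, first described in testis, and not on its widely expressed relative Hspa4. Hspa4l (ENSMUSG00000025757.12, chromosome 3, 40744495 to 40796103, plus strand) read 3.78, 2.60, 4.23, 5.26 and 4.00 in OVA_Rg3, 2.96, 5.13, 6.63, 3.18 and 3.00 in OVA, and 7.5, 5.03, 9.25, 9.45 and 6.56 in control lungs. Control 2 overlapped the other groups and the other 4 controls lay above nearly all of their libraries. Hspa4l had log2 changes of -0.75 ± 0.23 for OVA against control (SE, limma adjusted p = 0.0351) and of -0.78 ± 0.23 for OVA_Rg3 against control (limma adjusted p = 0.0441). Leaving out OVA 1, 4 or 5 or control 1, 3 or 4 ended the first call (adjusted p of 0.0703 to 0.0924), and leaving out any of 10 libraries (OVA 2 and 4, OVA_Rg3 1, 2, 3 and 5, control 1, 3, 4 and 5) ended the second (0.0501 to 0.117); over all alternatives the adjusted p lay between 0.00268 and 0.117 for OVA_Rg3 and between 0.00101 and 0.0924 for OVA. Hspa4 averaged 16.9 ± 1.34, 16.8 ± 1.84 and 18.4 ± 1.36 in OVA_Rg3, OVA and control lungs (SD, n = 5 each), with log2 changes of -0.13 ± 0.12 for OVA against control and 0.01 ± 0.12 for OVA_Rg3 against OVA (SE).

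None of the small HSPs was called, though alternatives called some of them lower in OVA against control. Hspb1 (HSP25 in mouse), which guards actin filaments, was the most abundant, at 51.7 ± 10 in OVA_Rg3, 50.7 ± 18.2 in OVA and 41.2 ± 7.63 in control lungs (SD, n = 5 each). Hspb8, a partner of Bag3 in autophagy of damaged proteins, was at 10.6 ± 3.00, 11.6 ± 4.69 and 11.6 ± 3.61 (SD, n = 5 each). Hspb7, known from heart and skeletal muscle, came closest to a call, at 0, 1.62, 3.33, 2.95 and 2.43 in OVA_Rg3, 2.58, 1.5, 1.35, 1.01 and 2.78 in OVA, and 4.28, 4.89, 4.40, 4.53 and 3.88 in control lungs. Every OVA_Rg3 and OVA library lay below every control, and the 0 is that of the shallow OVA_Rg3 1. For Hspb7 the log2 change was -0.97 ± 0.33 for OVA against control (SE, limma adjusted p = 0.0561) and -0.98 ± 0.33 for OVA_Rg3 against control (limma adjusted p = 0.0713). Without OVA_Rg3 1 the first comparison kept its log2 change and passed, with an adjusted p of 0.00277, and over all alternatives that p ran from 0.00138 to 0.289.

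Hspb6 (HSP20), a small HSP of smooth, heart and skeletal muscle, read 10.7, 3.31, 2.84, 4.44 and 2.03 in OVA_Rg3, 1.94, 0.442, 3.07, 5.37 and 2.75 in OVA, and 5.71, 5.55, 5.55, 4.36 and 3.62 in control lungs. OVA_Rg3 1 exceeded every other library, and apart from it OVA_Rg3 and OVA lay mostly under the controls. For Hspb6 the log2 change was -0.82 ± 0.38 for OVA against control (SE, limma adjusted p = 0.157) and 0.59 ± 0.38 for OVA_Rg3 against OVA (limma adjusted p = 0.677), the largest positive change of any member between OVA_Rg3 and OVA, and 0.29 without OVA_Rg3 1. With array weights OVA against control was called lower for Hspb6 (-1.02, limma adjusted p = 0.0164). It was also called without control 2, OVA 4 and OVA_Rg3 1 (-1.02, limma adjusted p = 0.0312) and as deposited (-1.52, limma adjusted p = 0.00248). Smooth muscle markers summed to 178 to 250 in OVA_Rg3, 98.4 to 189 in OVA and 426 to 552 in control lungs, with 7 of 8 called lower in OVA and 7 of 8 in OVA_Rg3, both against control. Heart muscle markers summed to 24.3 to 55.7, 9.17 to 86.6 and 54.1 to 156 in the same order, with 2 of 7 and 1 of 7 called lower; Cnn1 and Actc1 were at 0 in OVA_Rg3 1, and Myl7 in OVA_Rg3 1 and OVA 1. Nppa was at 0 in 5 OVA_Rg3 and OVA libraries, and the part of either tissue in the Hspb6 and Hspb7 values was not tested. Hspb2 read 0, 4.58, 3.56, 3.82 and 6.02 in OVA_Rg3 lungs, against 3.69 ± 1.68 in OVA and 3.85 ± 0.747 in control lungs (SD, n = 5 each). Its exons overlap those of Cryab on the other strand, and whether counting used strand is not given in the sources used here.

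The mitochondrial chaperonin is a folding cage of Hspd1 (HSP60) closed by a lid of Hspe1 (HSP10). Their genes lie head to head on chromosome 1 (Hspd1 ENSMUSG00000025980.14, 55077835 to 55088243, minus strand; Hspe1 ENSMUSG00000073676.4, 55088132 to 55091307, plus strand) and share a promoter. In it lie 2 overlapping matches to the heat shock element, whose joint span is in capitals below. The same bases are printed once on each gene's strand, from RefSeq, build GRCm38.p6, with 20 bases on each side, to show that 1 stretch faces both genes.
Hspe1, chr1:55088039-55088096, plus strand: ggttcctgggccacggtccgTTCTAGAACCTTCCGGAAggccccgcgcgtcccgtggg
Hspd1, chr1:55088039-55088096, minus strand: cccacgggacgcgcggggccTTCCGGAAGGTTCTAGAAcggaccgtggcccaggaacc

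With this promoter in common, the 2 genes were ordered differently across OVA_Rg3 and OVA libraries, a difference that was not tested. Hspe1 read 22.5, 24.5, 36.2, 34.0 and 33.3 in OVA_Rg3, 38.3, 41.5, 54.7, 37.7 and 51.3 in OVA, and 41.2, 35.1, 46.0, 42.6 and 44.3 in control lungs. All 5 OVA_Rg3 libraries lay below all 5 OVA libraries, which was so for no other member and for 0.807% of all genes tested. Hspe1 had a log2 change of -0.56 ± 0.17 for OVA_Rg3 against OVA (SE, 95% interval -0.92 to -0.21), but the limma adjusted p was 0.439. Without the shallow OVA_Rg3 1 it was -0.47 (limma adjusted p = 0.449), and over all alternatives the adjusted p ran from 0.226 to 0.827. In the values as deposited it was -0.15 (limma adjusted p = 0.750), and there the OVA_Rg3 and OVA libraries overlapped. Against control, with all libraries, the log2 change was -0.48 ± 0.17 in OVA_Rg3 (limma adjusted p = 0.0795) and 0.08 ± 0.17 in OVA (limma adjusted p = 0.796). The second of these turned round in the values as deposited, to -0.78 (limma adjusted p = 0.0163).

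Hspd1 did not follow Hspe1 in the same libraries, and read 65.0, 32.0, 34.5, 37.4 and 38.4 in OVA_Rg3, 33.9, 36.8, 31.9, 40.7 and 39.8 in OVA, and 44.5, 40.7, 48.0, 59.4 and 45.0 in control lungs. OVA_Rg3 1 was the highest library for Hspd1 and the lowest for Hspe1, and the other 4 OVA_Rg3 libraries lay within the OVA range for Hspd1. Its log2 change was 0.13 ± 0.18 for OVA_Rg3 against OVA and -0.36 ± 0.18 for OVA against control (SE, limma adjusted p = 0.839 and 0.200). All 5 OVA libraries lay below all 5 control libraries, by a narrow margin between OVA 4 and control 2, and OVA against control was called lower as deposited, with array weights, without control 2, OVA 4 and OVA_Rg3 1, and without the 2 libraries of lowest depth (limma adjusted p = 0.0016, 0.031, 0.0351 and 0.0347). The ratio of Hspe1 to Hspd1 was 0.346, 0.766, 1.05, 0.910 and 0.867 in OVA_Rg3, 1.13, 1.13, 1.71, 0.927 and 1.29 in OVA, and 0.926, 0.864, 0.958, 0.716 and 0.985 in control lungs. The annotation has exons of both genes overlapping on opposite strands, so without strand their reads there cannot be told apart. Dnaja3 (Tid1), the DnaJ partner of Hspa9 in mitochondria, was at 9.07 ± 1.86 in OVA_Rg3, 6.28 ± 0.628 in OVA and 7.45 ± 0.887 in control lungs (SD, n = 5 each; log2 change 0.45 for OVA_Rg3 against OVA, limma adjusted p = 0.507).

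Class A and B DnaJ genes gave 3 of the 7 calls between OVA and control. Dnaja4 (ENSMUSG00000032285.15, chromosome 9, 54698873 to 54716315, plus strand), a cytosolic partner of HSP70, read 5.04, 7.44, 11.9, 9.10 and 9.29 in OVA_Rg3, 5.12, 14.5, 13.6, 6.34 and 8.71 in OVA, and 15.8, 14.0, 23.0, 22.7 and 14.1 in control lungs. All OVA_Rg3 libraries lay below all controls, and OVA 2 passed the 2 lowest of them. Log2 changes of Dnaja4 were -0.89 ± 0.28 for OVA against control (SE, limma adjusted p = 0.0398) and -1.0 ± 0.28 for OVA_Rg3 against control (limma adjusted p = 0.0363). The first call ended without OVA 1, 4 or 5 or control 1, 3 or 4 (adjusted p of 0.0656 to 0.103) and the second without OVA_Rg3 1, 2 or 5 or control 1, 3 or 4 (0.0604 to 0.0990), and over all alternatives the adjusted p lay between 0.00867 and 0.0990 for OVA_Rg3 and between 0.00104 and 0.103 for OVA. Its exons overlap those of Wdr61 on the other strand.

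Dnajb13 (ENSMUSG00000030708.14, chromosome 7, 100501716 to 100514960, minus strand) belongs to the radial spokes of motile cilia and sperm tails. It read 0, 4.17, 7.21, 8.36 and 3.51 in OVA_Rg3, 0.526, 4.36, 1.93, 2.80 and 3.65 in OVA, and 9.67, 11.9, 13.4, 10.3 and 5.67 in control lungs. No OVA library reached a control, while OVA_Rg3 3 and 4 exceeded control 5. Dnajb13 had a log2 change of -1.69 ± 0.51 for OVA against control (SE, limma adjusted p = 0.0338), the largest fall of any member, and -1.28 ± 0.51 for OVA_Rg3 against control (limma adjusted p = 0.126), or -0.74 without OVA_Rg3 1. Leaving out OVA 1, 3 or 4 or control 1, 2, 3 or 4 ended the call (adjusted p of 0.0568 to 0.0814), as did a pseudocount of 0.1 (0.175), in a range of 0.00153 to 0.175 over all alternatives.

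Ciliated cell markers were lower in the same comparison. The 8 markers summed to 80.0 to 273 in OVA_Rg3, 84.2 to 248 in OVA and 354 to 731 in control lungs, with 6 of 8 called lower in OVA and 6 of 8 in OVA_Rg3, both against control; Ccdc39 and Tekt1 were at 0 in OVA_Rg3 1. Their part in the Dnajb13 result was not tested. Exons of Dnajb13 overlap those of Ucp2 on the other strand.

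Dnajb4 (ENSMUSG00000028035.13, chromosome 3, 152178511 to 152210302, minus strand), a cytosolic relative of Dnajb1, read 8.81, 4.69, 4.01, 4.66 and 4.21 in OVA_Rg3, 3.01, 3.36, 2.44, 3.97 and 4.85 in OVA, and 5.58, 4.89, 6.21, 8.40 and 5.38 in control lungs. OVA 5 fell just short of the lowest control, and OVA_Rg3 1 lay above all controls. For Dnajb4 the log2 change was -0.65 ± 0.21 for OVA against control (SE, limma adjusted p = 0.0458) and 0.45 ± 0.21 for OVA_Rg3 against OVA (limma adjusted p = 0.579), the second of which was 0.27 without OVA_Rg3 1. The call ended when any of 12 libraries was left out, that is OVA 1 to 4, OVA_Rg3 2 to 5 and control 1, 3, 4 and 5 (adjusted p of 0.0504 to 0.124), in a range of 0.00100 to 0.124 over all alternatives.

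The remaining class B genes were not called. Dnajb6, which keeps polyglutamine proteins from aggregating, measured 13.5 ± 1.62 in OVA_Rg3, 14.1 ± 1.52 in OVA and 13.2 ± 2.51 in control lungs (SD, n = 5 each). Dnajb5 read 0, 2.61, 2.84, 0.923 and 1.43 in OVA_Rg3, 3.07, 3.15, 1.82, 2.86 and 2.07 in OVA, and 2.10, 4.32, 1.46, 2.29 and 2.08 in control lungs, with a log2 change of -0.63 ± 0.32 for OVA_Rg3 against OVA (SE, limma adjusted p = 0.601), or -0.32 without OVA_Rg3 1. Dnajb12 and Dnajb14, which sit in the ER membrane, averaged 5.70 ± 2.09 and 1.88 ± 0.928 in OVA_Rg3, 3.87 ± 0.692 and 1.67 ± 0.479 in OVA, and 3.57 ± 1.2 and 1.95 ± 0.473 in control lungs (SD, n = 5 each). Dnajb2, known from neurons, was at 6.24 ± 1.06, 7.74 ± 3.09 and 7.44 ± 4.24 in the same order.

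Of 24 class C genes tested, 1 was called in OVA against control and the same 1 in OVA_Rg3 against control. Dnajc16 (ENSMUSG00000040697.10, chromosome 4, 141760189 to 141790931, minus strand), an ER-anchored DnaJ protein also called ERdj8, read 1.55, 2.00, 2.37, 1.78 and 1.23 in OVA_Rg3, 2.39, 2.47, 1.40, 1.19 and 0.984 in OVA, and 3.81, 4.17, 4.57, 3.91 and 3.30 in control lungs. All 10 libraries of OVA_Rg3 and OVA lay below all 5 controls. The log2 change was -0.92 ± 0.18 for OVA against control (SE, limma adjusted p = 0.00496) and -0.84 ± 0.18 for OVA_Rg3 against control (limma adjusted p = 0.0159), while OVA_Rg3 against OVA was 0.08 ± 0.18 with a 95% interval of -0.32 to 0.47. In OVA the call held in all 25 alternatives, and in OVA_Rg3 it ended only without control 3 (limma adjusted p = 0.0521, in a range of 0.00219 to 0.0521).

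Dnajc2 (zuotin), which works with Hspa14 at the ribosome, had the largest negative change of any member between OVA_Rg3 and OVA. Its levels were 3.09, 6.27, 8.0, 10.2 and 9.18 in OVA_Rg3, 14.4, 12.0, 17.3, 9.5 and 10.2 in OVA, and 9.20, 11.4, 10.2, 9.35 and 9.66 in control lungs. OVA_Rg3 4 reached the lower OVA libraries and the other 4 lay below them. The log2 change was -0.76 ± 0.24 (SE, 95% interval -1.27 to -0.25, limma adjusted p = 0.465), or -0.52 without OVA_Rg3 1, and the adjusted p ran from 0.225 to 0.827 over all alternatives. In the values as deposited it read -0.38 (limma adjusted p = 0.527). Hspa14 differed by 0.31 in the same comparison (limma adjusted p = 0.586).

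Dnajc5, the cysteine string protein of secretory vesicles, was uneven among controls. It read 12.1, 10.6, 9.94, 8.32 and 9.71 in OVA_Rg3, 10.1, 8.27, 11.5, 9.30 and 8.84 in OVA, and 1.94, 8.23, 9.02, 0.319 and 9.89 in control lungs. Controls 1 and 4 alone stood low, the other 3 controls overlapped both other groups, and the highest control was 31 times the lowest. The log2 change was 1.01 ± 0.45 for OVA against control (SE, limma adjusted p = 0.152) and 1.08 ± 0.45 for OVA_Rg3 against control (limma adjusted p = 0.149), the largest positive change of a member in that comparison. A similar single low value was that of Dnajc14, an ER membrane protein that escorts receptors, at 0.774 in OVA 3 and 6.51 to 10 in the other 14 libraries.

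Dnajc8, which takes part in pre-mRNA splicing, lay higher in all 5 OVA_Rg3 than in all 5 control libraries, at 36.8 ± 7.26 in OVA_Rg3, 33.8 ± 11.3 in OVA and 22.6 ± 4.02 in control lungs (SD, n = 5 each; log2 change 0.67 for OVA_Rg3 against control, limma adjusted p = 0.0665). Non-overlap with higher values was seen in 2 members for that comparison, Hspa12b being the other, against 3.58% of all genes tested, and with lower values in 5 (Hsp90b1, Hspb7, Dnaja4, Dnajc12 and Dnajc16), against 8.49%. Dnajc12, a cochaperone of aromatic amino acid hydroxylases, read 0, 1.51, 1.59, 1.60 and 1.63 in OVA_Rg3, 1.40, 2.38, 0.566, 0.215 and 1.78 in OVA, and 3.47, 2.25, 4.16, 3.45 and 2.42 in control lungs. OVA 2 alone of the OVA_Rg3 and OVA libraries passed the lowest control, and the log2 changes were -0.95 in OVA and -0.94 in OVA_Rg3 against control (limma adjusted p = 0.0511 and 0.0708).

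The other class C genes lay between these in size and were not called. Dnajc7, which holds clients between HSP70 and HSP90, was among the more abundant, at 24.4 ± 5.80 in OVA_Rg3, 28.8 ± 7.35 in OVA and 25.0 ± 1.49 in control lungs (SD, n = 5 each). The mitochondrial members Dnajc15, Dnajc19, Dnajc11 and Dnajc30 averaged 3.37, 7.00, 1.74 and 11.7 in OVA_Rg3, 3.18, 6.47, 1.23 and 14.1 in OVA, and 4.49, 7.08, 1.15 and 12.3 in control lungs. The shallow OVA_Rg3 1 was the highest OVA_Rg3 library for each of them and raised these means. It was 4.62 times the lowest OVA_Rg3 library for Dnajc11 and 3.71 times for Dnajc15. Dnajc17, a splicing-related member, had a log2 change of 0.52 for OVA_Rg3 against OVA (limma adjusted p = 0.522), with levels of 8.38 ± 1.97 in OVA_Rg3 and 5.59 ± 1.67 in OVA lungs (SD, n = 5 each). Dnajc9, a chaperone of histones, and Dnajc21, which acts in ribosome maturation, were at 8.35 ± 2.78 and 6.45 ± 1.78 in OVA_Rg3, 9.27 ± 1.25 and 8.07 ± 2.25 in OVA, and 10.2 ± 0.805 and 6.24 ± 1.64 in control lungs (SD, n = 5 each). Dnajc1, Dnajc4, Dnajc13, Dnajc18, Dnajc24, Dnajc25, Dnajc27 and Dnajc28 read 0.168 to 14.2 over all 15 libraries, apart from the 0 at which Dnajc4, Dnajc24 and Dnajc28 were listed in OVA_Rg3 1.

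**Figure D5:**
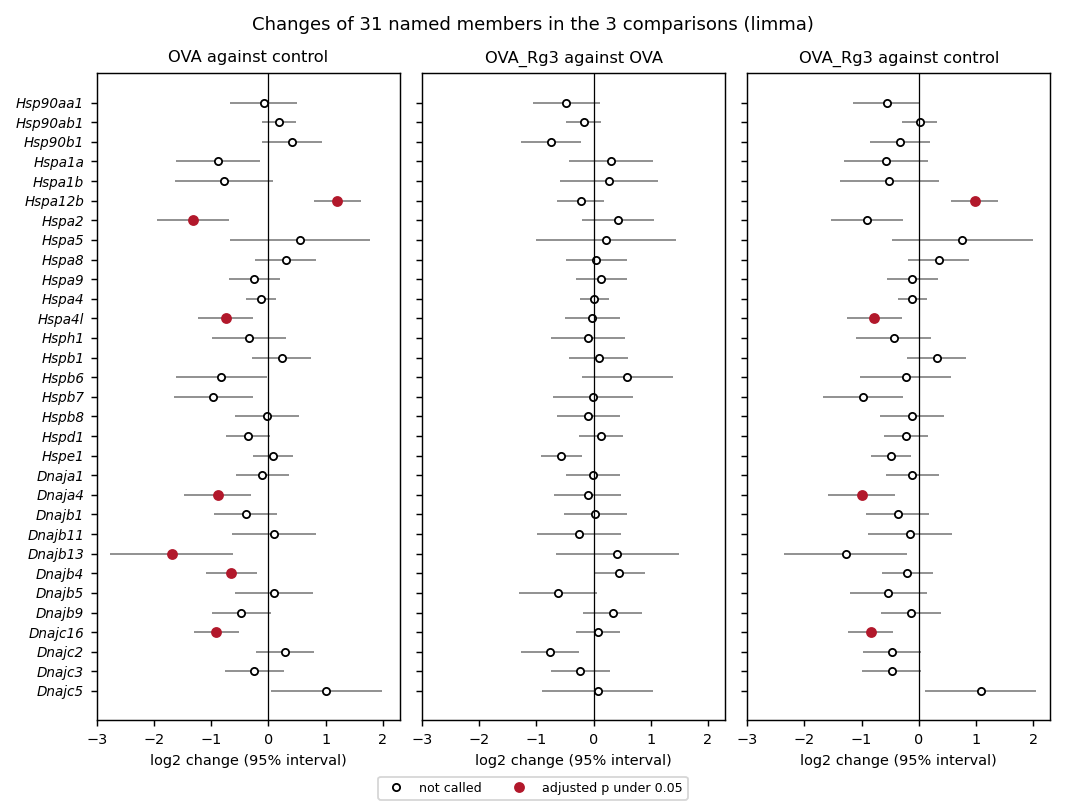
Log2 changes of 31 members in the 3 comparisons by limma, with 95% intervals; filled points passed an adjusted p of 0.05. The middle panel, OVA_Rg3 against OVA, has no filled point, and Hspa12b is the only filled point to the right of 0 in the outer panels.

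By family, the summed levels overlapped between all groups. The HSP90 sum was 443 ± 53.1 in OVA_Rg3, 598 ± 106 in OVA and 509.8 ± 65.2 in control lungs, and the HSP70 sum 194 ± 55.3, 180.1 ± 49.8 and 165 ± 46.7 (SD, n = 5 each). The HSP110 sum was 26.3 ± 3.01, 27.2 ± 4.08 and 33.7 ± 5.05, and that of class B DnaJ genes 78.3 ± 10, 74.0 ± 11.7 and 89.9 ± 8.38 in the same order. Of the 3 HSP90 genes all had a log2 change below 0 for OVA_Rg3 against OVA, none of them called, although Hsp90ab1 read 0.25 in the values as deposited and 0.0019 with quantile normalization. Of 10 HSP70 genes tested 9 had one above 0, none of them called either, but without OVA_Rg3 1 Hspa8, Hspa9 and Hspa1b read -0.10, -0.10 and -0.03. Over all members 36 of 63 lay above 0 in that comparison (57.1%), against 53% of all genes tested; in the values as deposited the median of the members was 0.32.

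Calls among the partners of these chaperones were about as frequent as among all genes. Of 46 partner genes tested (heat shock factors, nucleotide exchange and adaptor proteins, HSP90 partners, the cytosolic chaperonin TRiC and other chaperones), 2 rose and 4 fell in OVA against control, none passed in OVA_Rg3 against OVA, and 3 rose and 1 fell in OVA_Rg3 against control. These are 13% of the partners for OVA against control, beside 15.9% of all genes tested, and 8.7% for OVA_Rg3 against control, beside 8.91%. Bag1, which releases clients from HSP70, rose to 179 ± 43.0 in OVA lungs, against 99.0 ± 14.7 in control lungs (SD, n = 5 each; log2 change 0.82, limma adjusted p = 0.0110). Cryab, a small HSP that the name rule does not reach, was at 39.7 ± 7.30 in OVA_Rg3, 43.2 ± 10.6 in OVA and 22.7 ± 8.77 in control lungs (SD, n = 5 each), with log2 changes of 0.94 and 0.83 for OVA and OVA_Rg3 against control (limma adjusted p = 0.0145 and 0.0388). Fkbp4, an HSP90 partner at steroid receptors, fell to 33.3 ± 7.71 in OVA_Rg3 and 33.0 ± 4.23 in OVA, against 50.5 ± 8.03 in control lungs (SD, n = 5 each; limma adjusted p = 0.0436 and 0.0326). The kinase adaptor Cdc37 and Bag5 rose in OVA_Rg3 lungs, to 9.83 ± 0.620 and 14.5 ± 2.36, against 5.58 ± 1.29 and 8.22 ± 1.17 in control lungs (SD, n = 5 each; limma adjusted p = 0.0242 and 0.0169). With size factors from genes above 0 both Fkbp4 calls ended (limma adjusted p = 0.0798 for OVA_Rg3 and 0.0968 for OVA), and with quantile normalization the OVA_Rg3 call did (limma adjusted p = 0.0515). In the values as deposited Fkbp4 was called lower in OVA_Rg3 and in OVA, the other 4 were not called, and Bag1 read -0.05 and Cryab 0.09 for OVA against control. None of the 7 TRiC subunits tested was called in any comparison.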

How the data were processed

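The authors deposited 1 table of expression values for 14766 genes in 15 lung libraries, made from poly(A)-selected RNA per the labels' protocols; Trimmomatic, featureCounts and the build GRCm39 (mm39) are named per the submitters' processing notes, and versions are not given in the sources used here. The deposited values carry no stated unit and were read as FPKM from their size and decimals, which the depositors may have computed otherwise, so a count model was not used. Gene coordinates in the table equal those of GENCODE M21 on GRCm38 for 13545 genes and 64 of the 70 members, so GRCm38 is given. Depth was estimated from steps between low values: 35.4% to 52.6% of them per library lay within 2% of whole steps, against 8% if spread evenly.

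Values were divided by median-ratio size factors. Tests used limma 3.58.1 in R 4.3.3 with trend and robust settings on log2(scaled FPKM + 1), 1 model for all groups, and Benjamini-Hochberg adjustment over 12137 genes; the scripts were tested on simulated data. Python 3.11.15 with numpy 2.4.6, pandas 2.3.3 and matplotlib 3.10.9 was also used. Fold changes on this scale understate those of low genes.

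Members named with full values were 22 fixed genes, all called members, and the members of smallest p or largest change per comparison, 31 in all. Other members were named after their values were seen. Members, partner and marker lists were chosen with earlier results of these data known. Alternatives were the values as deposited, quantile normalization, filters, a pseudocount of 0.1, array weights, 2 groups at a time, a replicate block, and leaving out libraries. Size factors from genes above 0, and leaving out both libraries of lowest depth, were chosen after seeing the data. Promoter windows are those of RefSeq on GRCm38.p6, found for 56 members.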

Additional observations from a re-analysis of the deposited data

Results flagged for a closer look

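Of the 31 members given by the naming rule, each group of 5 libraries was searched for a library whose gap to its nearest neighbour exceeded 0.71 of the group's range, and 7 of 93 groups had one; chance gives about 1 in 20. In OVA_Rg3 1, the shallowest library, 4 members stood above the other OVA_Rg3 libraries. Hspa9 was at 54.4 scaled FPKM there and at most 27.2 elsewhere in the group. Hspd1 was at 65.0, against 38.4 at most, Hspb6 at 10.7, against 4.44, and Dnajb4 at 8.81, against 4.69. Control 4 stood above the other controls for Hspa8, at 109 against 72.6 at most, and for Hspa5, at 49.3 against 16.0. Control 2, the second shallowest library, stood below the other controls for Dnajb11, at 5.21 against 17.2 at least.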

How the results depend on the processing

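Members called numbered 7 for OVA against control, and 41 in the values as deposited, 15 with array weights (which gave OVA_Rg3 1 a weight of 0.106), 13 without control 2, OVA 4 and OVA_Rg3 1, 12 without the 2 libraries of lowest depth, 4 with size factors from genes above 0, and 3 to 10 when 1 library was left out, with 3 without OVA 1, OVA 4, control 1, control 3 or control 4. For OVA_Rg3 against control 4 members were called, and 11 as deposited, 15 with array weights, 2 with a pseudocount of 0.1, 2 with size factors from genes above 0, and 1 to 5 when 1 library was left out, with 1 without control 3 and 2 without OVA_Rg3 2, OVA_Rg3 5, control 1 or control 4. For OVA_Rg3 against OVA no member was called under any alternative run. All genes called numbered 1933 for OVA against control, and 6286 as deposited, 3612 with array weights, 2945 without the 2 libraries of lowest depth and 1175 to 2860 when 1 was left out. For OVA_Rg3 against OVA they numbered 0, and 1 with a pseudocount of 0.1, 2 with array weights, 1 without control 2, OVA 4 and OVA_Rg3 1, and 0 to 1 when 1 was left out. For OVA_Rg3 against control they numbered 1081, and 2016 as deposited, 557 with a pseudocount of 0.1, 3236 with array weights and 280 to 1324 when 1 was left out. As deposited, OVA against control was below 0 and past the threshold for Hsp90ab1 (-0.69) and Hspe1 (-0.78), which lay above 0 after scaling; Hspa8, Hspa5, Hsp90b1, Hspb1, Dnajb11, Dnajc2 and Dnajb5 also changed sign in that comparison as deposited, without passing it. The cause of these moves was not tested. A fit with the replicate number as a block called 6 members and 1845 genes for OVA against control, 4 members and 1145 genes for OVA_Rg3 against control, and 0 of either for OVA_Rg3 against OVA. Deviations from the group means correlated at -0.39 to 0.33 between same-numbered libraries. These values were not set beside those of differently numbered libraries, so they cannot decide whether the numbers pair libraries. Depth limits low members most: in OVA_Rg3 1 and control 2 the value of 3 reads on 1 kb exceeds the level of many members, and the p-values rest on 5 libraries per group.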

Other observations

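OVA_Rg3 1 was the highest OVA_Rg3 library for 33 of the 63 members tested (52.4%), against 34.1% of all genes tested, and the lowest for 17 members (27.0%), against 38.0% of all genes. Among the 33 were Hsp90aa1, Hspa1a, Hspa1b, Hspa8, Hspa9, Hspd1 and Hsph1, and among the 17 Hspe1, Dnajb1, Dnajc2 and Hspb1. The library had the lowest implied depth of the study.

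The 5 macrophage markers (Chil3, Ear2, Marco, Mrc1 and Cd68) summed to 225 to 1155 scaled FPKM in OVA_Rg3, 221 to 1478 in OVA and 35.4 to 76.7 in control lungs. By these sums both OVA groups lay above every control library and overlapped each other. Of the 4 macrophage markers tested, 2 were called higher in OVA and 1 in OVA_Rg3, both against control, and Marco was listed at 0 in 8 libraries. The 4 club cell markers (Scgb1a1, Scgb3a2, Cyp2f2 and Cbr2) summed to 16334 to 43550 in OVA_Rg3, 22819 to 64514 in OVA and 45235 to 198398 in control lungs. All OVA_Rg3 sums lay below every control library, and the OVA range overlapped both. Of these 4 markers, 3 were called lower in OVA and 1 in OVA_Rg3, both against control.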
